A study of Mus musculus with 4 samples.

Results

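A panel of 10 transcripts that mark neutrophils and red cell precursors was followed through 4 single-colour microarrays of RNA labelled as mouse CD4+ T cells. The panel held 7 neutrophil genes, S100a8, S100a9, Lcn2, Ngp, Camp, Ltf and Pglyrp1, and 3 erythroid genes, Hba-a1, Hbb-b1 and Alas2. It was set up as a check of blood cell carry-over into the selected cells. Each gene was found by the gene name in the deposited tables and each had 1 row, so that the panel made up 10 of 35411 rows and 10 of 20735 named genes. The genes were selected on their normalised intensities on these same arrays, so their levels and differences are given as descriptions with no test.

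All mice had the FVB/N background, and 1 array was available for each of 4 groups. The groups were cells of miR-7 deficient mice labelled as activated, cells of wild type mice labelled as activated, naive cells of miR-7 deficient mice and naive cells of wild type mice. All were labelled CD4+ CD62Lhi (high in CD62L, the lymph node homing receptor) and came from splenocytes. The naive cells were isolated with immunomagnetic beads, and activation took place in vitro for 48 hours with antibodies to CD3 and CD28 plus IL-2. The labels do not say how the deficiency in the microRNA miR-7 was made, or in which cells. Each sample is labelled as standing for 3 biological replicates. With 1 array per group every difference below lies between 2 arrays, has no replicate check and carries no p-value, and the number of arrays limits the precision.

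Median normalised intensities were close on the 4 arrays, between 200.2 and 204. A background floor was set on each array at the 95th percentile of 667 rows for chemosensory receptors (olfactory, vomeronasal, taste and trace amine receptors), which lymphocytes are not known to use. It lay at 604 on the miR-7 deficient activated array, 719.6 on the wild type activated array, 985 on the miR-7 deficient naive array and 984 on the wild type naive array. Above it stood 25.8%, 22.2%, 14.7% and 13.7% of all genes in the same order. Differences are on the log2 scale of intensity, and a gene was counted as apart at 1 or more, a 2-fold difference, with at least 1 of the compared arrays above its floor. Where 1 array lay below its floor, that value was set to the floor and the difference is a lower bound.

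The arrays labelled activated went against their label in the checks of cell type. Of 13 T cell markers, the miR-7 deficient activated array held 1 above its floor and the wild type activated array 3, against 11 on the miR-7 deficient naive array and 9 on the wild type naive array. Of 10 brain cell markers, 9 lay above the floor on each array labelled activated and 1, Aqp4, on each naive array. In each genotype 5 of the 10 were 2-fold or more higher on the array labelled activated and 1, Aqp4, was lower. Its difference was −1.02 on the miR-7 deficient and −1.34 on the wild type arrays. Snap25, a synaptic protein, read 10339 and 7834 on the miR-7 deficient and wild type arrays labelled activated, against 127 and 356 on the miR-7 deficient and wild type naive arrays. Every activation comparison below is therefore between arrays that carry these labels. Correlation across rows was 0.923 between the arrays labelled activated and 0.900 between the naive arrays, against 0.734 between the miR-7 deficient arrays and 0.735 between the wild type arrays, and rows are not replicates.

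Neutrophils are short-lived phagocytes of the blood that carry ready-made antimicrobial proteins in granules and in the cytosol. S100a8 and S100a9 encode the subunits of calprotectin, an abundant cytosolic protein that binds calcium, zinc and manganese. Lcn2, Ngp, Camp and Ltf encode granule proteins: a lipocalin that captures bacterial iron carriers, the neutrophilic granule protein, the precursor of the cathelicidin peptide and the iron-binding protein lactoferrin. Pglyrp1 encodes a peptidoglycan recognition protein of granules. Red cell precursors fill with haemoglobin, made of alpha globin (Hba-a1) and beta globin (Hbb-b1) chains, and Alas2 encodes the erythroid enzyme that begins haem synthesis. The spleen of the mouse holds all of these cells beside its lymphocytes and makes red cells in adult life.

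The promoters of the members whose levels the results turn on are shown so that the sequence at their gene starts can be read beside their levels. RefSeq windows (GRCm38.p6), from 250 bases before to 50 bases after the gene start, were matched for 9 of the 10 members, all but Hbb-b1. The 5 below are S100a8 at chr3:90668821-90669120 on the plus strand, S100a9 at chr3:90695672-90695971 on the minus strand, Lcn2 at chr2:32387690-32387989 on the minus strand, Pglyrp1 at chr7:18884440-18884739 on the plus strand and Hba-a1 at chr11:32283422-32283721 on the plus strand. Capitals mark any match to the TATA box core TATAA, the CCAAT box, the CACCC box, the letters AGATAA that GATA factors bind, or the C/EBP-type letters TTGCNNAA. Both strands were searched, and no capital run holds more than 1 motif.
S100a8: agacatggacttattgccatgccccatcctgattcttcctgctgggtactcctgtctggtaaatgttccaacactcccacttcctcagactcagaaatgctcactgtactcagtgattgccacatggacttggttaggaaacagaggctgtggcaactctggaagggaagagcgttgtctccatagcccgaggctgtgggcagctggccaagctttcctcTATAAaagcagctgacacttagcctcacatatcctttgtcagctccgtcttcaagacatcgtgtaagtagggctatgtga
S100a9: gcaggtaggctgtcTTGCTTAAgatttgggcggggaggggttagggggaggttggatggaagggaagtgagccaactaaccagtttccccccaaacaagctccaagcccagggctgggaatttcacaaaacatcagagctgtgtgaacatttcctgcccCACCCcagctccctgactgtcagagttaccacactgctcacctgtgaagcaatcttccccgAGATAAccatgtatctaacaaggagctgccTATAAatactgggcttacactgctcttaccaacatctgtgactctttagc
Lcn2: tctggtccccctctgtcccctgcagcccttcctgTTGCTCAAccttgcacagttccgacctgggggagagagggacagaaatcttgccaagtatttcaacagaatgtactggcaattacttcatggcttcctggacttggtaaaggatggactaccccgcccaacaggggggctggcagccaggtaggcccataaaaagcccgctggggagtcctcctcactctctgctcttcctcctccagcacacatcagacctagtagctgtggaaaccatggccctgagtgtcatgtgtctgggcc
Pglyrp1: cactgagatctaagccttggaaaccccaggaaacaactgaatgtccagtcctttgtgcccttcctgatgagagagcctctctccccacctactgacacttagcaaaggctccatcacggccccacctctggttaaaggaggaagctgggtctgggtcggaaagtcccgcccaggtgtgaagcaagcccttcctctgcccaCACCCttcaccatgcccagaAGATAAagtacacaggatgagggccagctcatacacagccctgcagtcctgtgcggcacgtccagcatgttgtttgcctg
Hba-a1: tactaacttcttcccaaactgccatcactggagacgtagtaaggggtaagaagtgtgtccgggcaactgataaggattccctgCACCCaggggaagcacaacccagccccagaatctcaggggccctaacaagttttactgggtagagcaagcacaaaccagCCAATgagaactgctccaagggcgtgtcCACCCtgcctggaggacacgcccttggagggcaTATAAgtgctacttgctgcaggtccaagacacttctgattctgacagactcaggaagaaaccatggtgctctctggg

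TATAA stood in the windows of 4 of the 9 members, S100a8, S100a9, Hba-a1 and Alas2, and in 24.9% of 32851 promoter windows of the same length. In S100a8 it began 30 bases and in Hba-a1 27 bases before the gene start, while in S100a9 it began at base 1 of the annotated gene. TTGCNNAA was found in S100a9, Lcn2, Ngp and Ltf, 4 of 9, against 10.8% of all windows. AGATAA was found in S100a9, Ltf, Pglyrp1 and Alas2, 4 of 9, against 11.2% of all windows. The search was for these letters alone, and a variant such as the TGATAA in the Hba-a1 window was not marked. CACCC stood in 6 of 9, against 57.5%, and CCAAT in 3 of 9, against 37.4%. Windows were aligned in pairs without gaps, at the best of the shifts tried. Those of S100a8 and S100a9, neighbours on chromosome 3, matched at 85 of 295 aligned bases (28.8%). The share that unrelated windows reach in this way was not computed. The windows of Hba-a1 and its copy Hba-a2 were identical over all 297 aligned bases. A match describes letters in a window and not a bound site.

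The panel stood above the floor on few arrays. Pglyrp1 was above it on all 4 arrays, Lcn2 and Hba-a1 on 3, Hbb-b1 on 2, and S100a8 and S100a9 on the miR-7 deficient naive array alone. Ngp, Camp, Ltf and Alas2 were below it on every array. By array, the number of members above the floor was 3 for miR-7 deficient activated, 3 for wild type activated, 5 for miR-7 deficient naive and 3 for wild type naive. The values nearest the floor were S100a8 on the miR-7 deficient naive array, at 123% of it, and Lcn2 on the wild type activated array and S100a9 on the wild type naive array, at 82.6% and 81.8% of it.

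**Figure D1:**
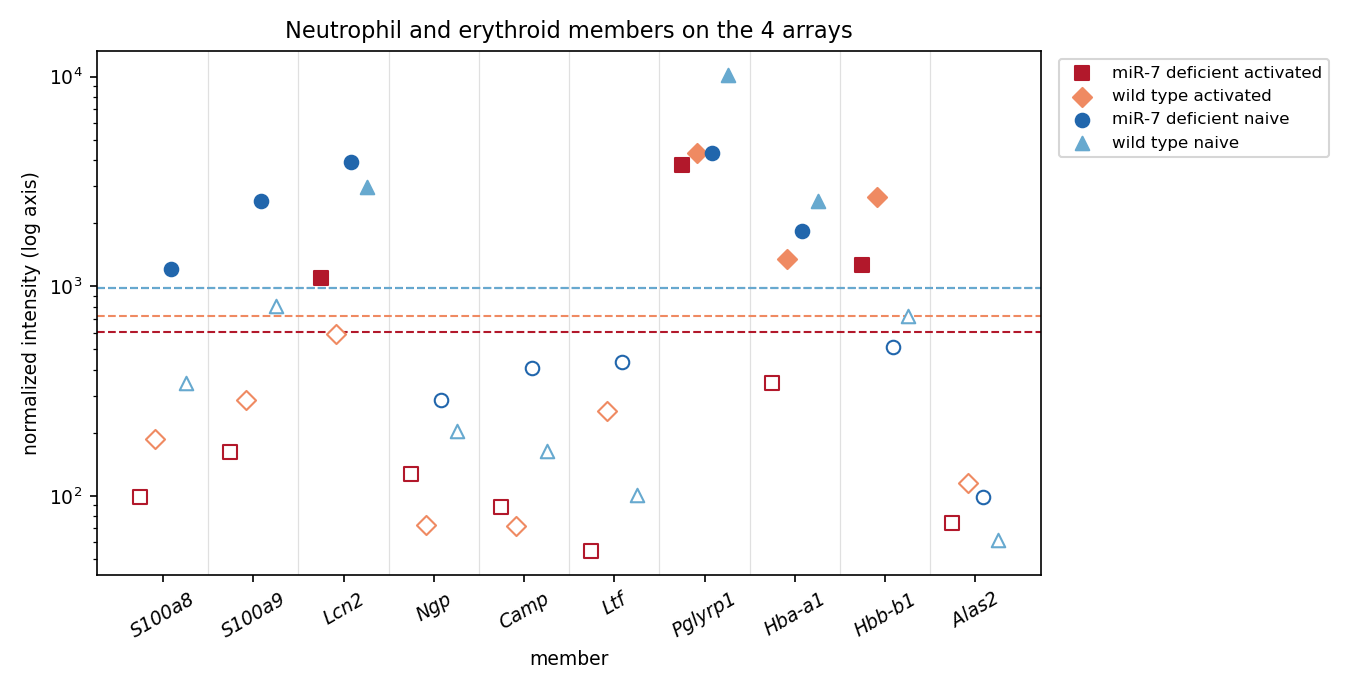
Normalised intensity (log axis) of the 10 members on the 4 arrays, with filled markers above and open markers below the array's floor, which the dashed lines show. Pglyrp1 is filled on all 4 arrays, S100a8 and S100a9 on the miR-7 deficient naive array alone, and Ngp, Camp, Ltf and Alas2 on none.

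S100a8 and S100a9, the calprotectin pair, were highest on the miR-7 deficient naive array and lowest on the miR-7 deficient activated array. S100a8 read 98.7 on the miR-7 deficient activated array, 188 on the wild type activated array, 1209.6 on the miR-7 deficient naive array and 347 on the wild type naive array. S100a9 read 163 on the miR-7 deficient activated array, 286 on the wild type activated array, 2563 on the miR-7 deficient naive array and 804 on the wild type naive array. The order of the 4 arrays was the same for both genes, and a single array stood above the floor for each. S100a9 was at least 2.61-fold higher in miR-7 deficient than in wild type naive cells (log2 difference of 1.38 or more). For S100a8 the bound was 0.30, and the ratio of its measured values was 1.80 on the log2 scale. Between the arrays labelled activated both genes lay below the floor, with log2 differences of measured values of −0.93 for S100a8 and −0.82 for S100a9.

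On the miR-7 deficient arrays S100a9 was lower on the array labelled activated than on the naive array by a bound of −2.09. S100a8 was lower by a bound of −1.003, just past the 2-fold limit. It fell short of that limit at −0.88 after centring on the median difference of all genes and at −0.96 after removal of the intensity trend. On the wild type arrays both genes lay below the floor, and their measured values differed by −0.89 for S100a8 and −1.49 for S100a9.

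Lcn2 was above the floor on every array but the wild type activated one. Its intensity was 1090.2 on the miR-7 deficient activated array, 595 on the wild type activated array, 3912 on the miR-7 deficient naive array and 2961 on the wild type naive array. The miR-7 deficient array was the higher in both genotype comparisons, by 0.40 between naive arrays and by at least 0.60 between arrays labelled activated, neither of which reached 2-fold. The arrays labelled activated were the lower in both genotypes, by −1.84 on the miR-7 deficient and by a bound of −2.04 on the wild type arrays.

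Pglyrp1 was above the floor throughout, and the wild type naive array stood apart from the other 3. It read 3782 on the miR-7 deficient activated array, 4316 on the wild type activated array, 4324 on the miR-7 deficient naive array and 10237 on the wild type naive array. The wild type naive value lay at the 98.9th percentile of all rows on its array, and the other values between the 96.6th and the 97.0th. Pglyrp1 was 2.37-fold lower in miR-7 deficient than in wild type naive cells (−1.24), the opposite direction to S100a9. It was lower by −1.25 on the wild type activated than on the wild type naive array. The differences were −0.19 between the arrays labelled activated and −0.19 between the miR-7 deficient arrays.

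The granule genes Ngp, Camp and Ltf gave no measured level above background. Ngp read 127 on the miR-7 deficient activated array, 72.5 on the wild type activated array, 286 on the miR-7 deficient naive array and 204 on the wild type naive array. Camp read 88.3 on the miR-7 deficient activated array, 71.7 on the wild type activated array, 408 on the miR-7 deficient naive array and 164 on the wild type naive array. Ltf read 54.6 on the miR-7 deficient activated array, 253 on the wild type activated array, 434 on the miR-7 deficient naive array and 101 on the wild type naive array. All 3 had their highest value on the miR-7 deficient naive array, as S100a8, S100a9 and Lcn2 did. Their measured values differed between miR-7 deficient and wild type naive arrays by 0.49 for Ngp, 1.31 for Camp and 2.10 for Ltf. All of these values lie below the floor. Of the receptor rows, which stand for background, 20.8% were 2-fold or more apart in either direction between the naive arrays. Those rows had a median of −0.21 and an SD of 0.78, and their share at the sizes of Camp and Ltf was not computed.

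Alpha globin and beta globin, which join in one protein, did not follow each other over the arrays. Hba-a1 read 345 on the miR-7 deficient activated array, 1356 on the wild type activated array, 1844 on the miR-7 deficient naive array and 2556 on the wild type naive array. Hbb-b1 read 1258 on the miR-7 deficient activated array, 2680.4 on the wild type activated array, 516 on the miR-7 deficient naive array and 719.6 on the wild type naive array. Hba-a1 was thus highest on the naive arrays and Hbb-b1 was above the floor only on the arrays labelled activated. For both genes the miR-7 deficient array had the lower value, between naive arrays as well as between arrays labelled activated.

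Between the arrays labelled activated Hbb-b1 was 2.13-fold lower on the miR-7 deficient array (−1.09) and Hba-a1 at least 2.25-fold lower (a bound of −1.17). Between the naive arrays the differences were −0.47 for Hba-a1 and, below both floors, −0.48 for Hbb-b1. By activation label the genes went apart. Hba-a1 was lower on the activated array by −0.92 in wild type samples and by a bound of −1.61 in miR-7 deficient samples, and the wild type difference passed 2-fold, at −1.25, when that pair was normalised alone. Hbb-b1 was at least 2.73-fold higher on the wild type activated than on the wild type naive array (1.45), and at least 0.35 higher on the log2 scale on the miR-7 deficient activated than on the miR-7 deficient naive array.

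The other rows of globin genes put these values in context. Hba-a2, the neighbouring alpha globin copy, had 3 rows, and as its sequence is nearly that of Hba-a1 the rows of both genes may read the same transcripts. The 3 rows read 302, 380.5 and 397 on the miR-7 deficient activated array, 1394, 1071 and 592 on the wild type activated array, 1632, 1656 and 653 on the miR-7 deficient naive array and 2799, 2179 and 1749 on the wild type naive array. All 4 alpha globin rows therefore ranked the arrays alike, lowest on the miR-7 deficient activated and highest on the wild type naive array. The rows for the embryonic globins Hba-x and Hbb-y lay between 42.7 and 130.2, below the floor on every array.

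**Figure D2:**
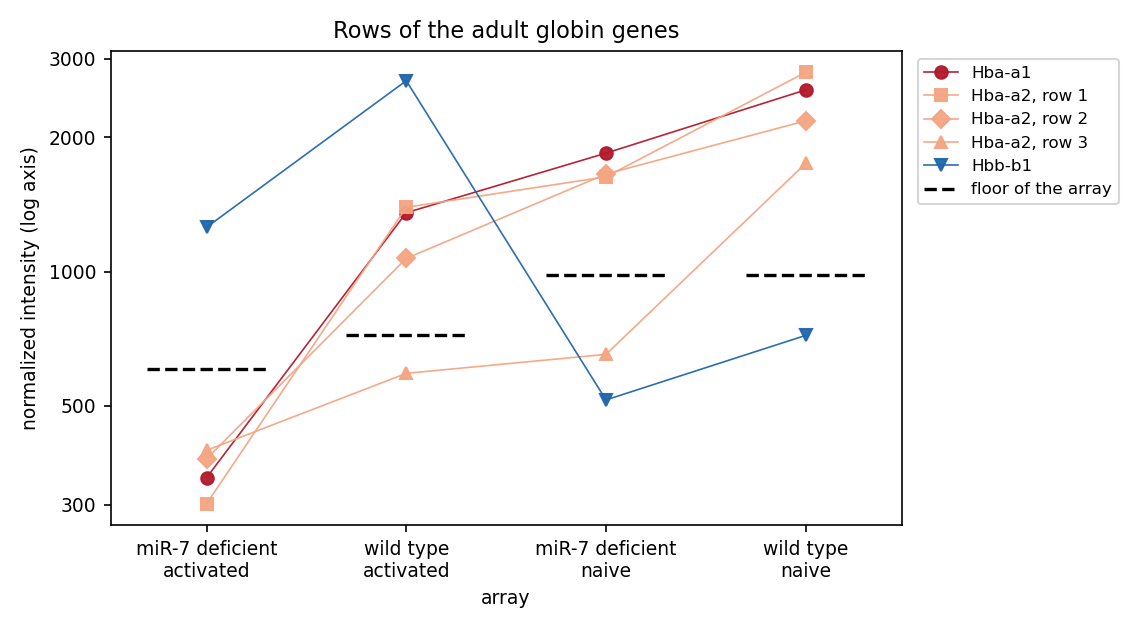
Normalised intensity (log axis) of Hba-a1, the 3 rows of Hba-a2 and Hbb-b1 on the 4 arrays, with lines joining the values of 1 row and a dashed line at the floor of each array. The 4 alpha globin rows are each lowest on the miR-7 deficient activated array, while Hbb-b1 reads 1258 there against 516 on the miR-7 deficient naive array.

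Alas2, the erythroid enzyme, gave no level above background beside the globins. It read 74.6 on the miR-7 deficient activated array, 115 on the wild type activated array, 98.5 on the miR-7 deficient naive array and 61.9 on the wild type naive array. Its counterpart in other tissues, Alas1, lay above the floor throughout, at 1199.7 and 1078 on the miR-7 deficient and wild type activated arrays and at 1369.7 and 1454 on the miR-7 deficient and wild type naive arrays. Of the 9 enzymes of haem synthesis measured, 2 were above the floor on at least 1 array, and neither was apart in any comparison. The others lay below every floor, so that no difference could be counted for them.

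In each comparison 2 to 4 of the 10 members were apart. Between naive arrays 5 members were above the floor on at least 1 array, and 1 was apart as higher (S100a9) and 1 as lower (Pglyrp1) in miR-7 deficient cells. Of 3461 genes compared in the same way 2.02% were higher and 0.809% lower. Between the arrays labelled activated none of 4 members was higher and 2, both globins, were lower on the miR-7 deficient array, against 2.22% higher and 2.38% lower of 5723 genes. Because these values were known when the panel was chosen, nothing is read from the shares.

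By activation label, 1 of 4 wild type members was higher (Hbb-b1) and 2 were lower (Lcn2 and Pglyrp1), against 14.5% higher and 8.81% lower of 5132 genes. On the miR-7 deficient arrays none of 6 was higher and 4 were lower (S100a8, S100a9, Lcn2 and Hba-a1), against 11.1% higher and 14.8% lower of 5828 genes. With the floor at the 99th percentile of the receptor rows the members still apart were Pglyrp1 between naive arrays, Lcn2 and Pglyrp1 between the wild type arrays and Lcn2 between the miR-7 deficient arrays. The 4 comparisons share arrays, so that their counts are not independent of each other. In bulk RNA, fewer cells of a type and less RNA per cell cannot be told apart.

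**Figure D3:**
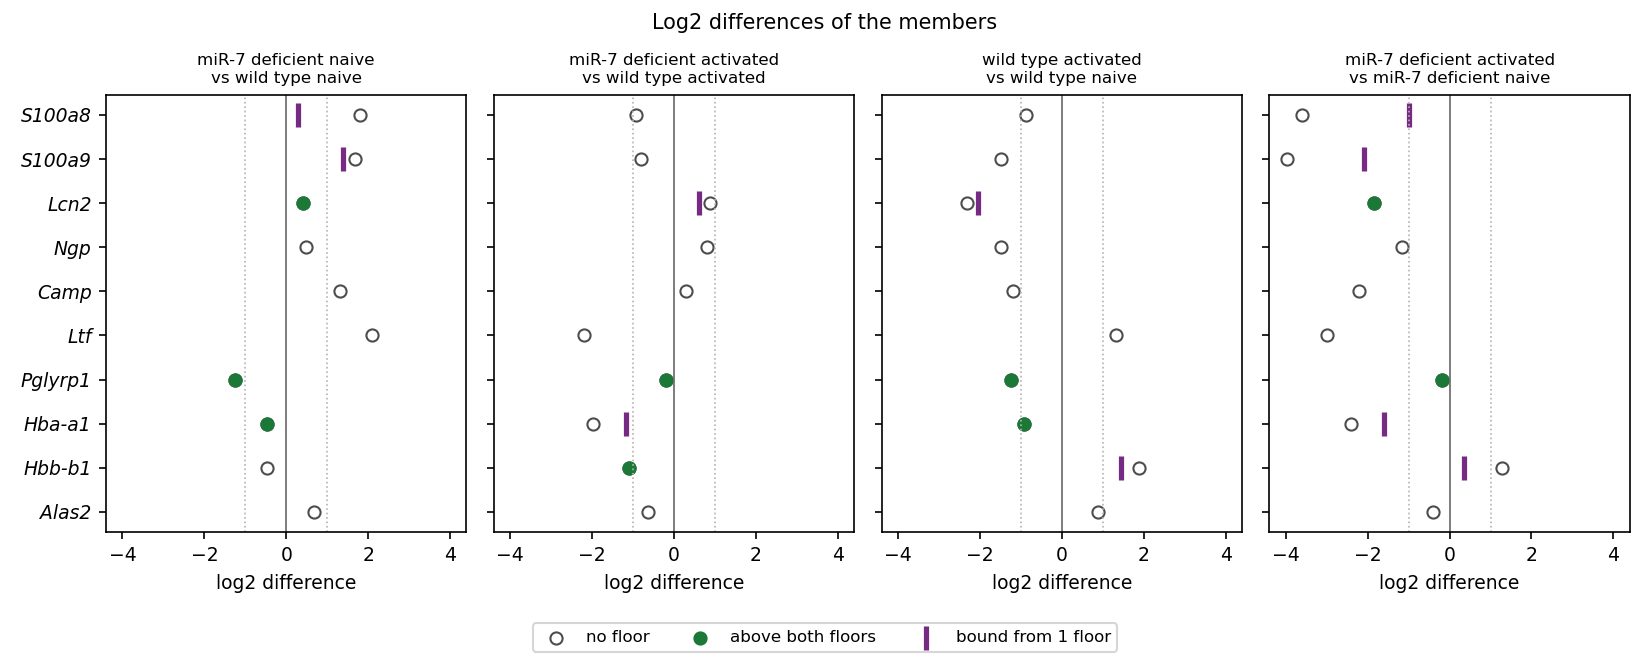
Log2 difference of each member in the 4 comparisons, with green markers for values above both floors, purple bars for bounds from 1 floor and open markers for measured values without a floor, and dotted lines at −1 and 1. Pglyrp1 at −1.24 lies opposite to S100a9 at 1.38 or more between naive arrays, and both globins lie past −1 between the arrays labelled activated.

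With every member counted at its measured value, floor or no floor, the neutrophil genes were higher in miR-7 deficient than in wild type naive cells in 6 of 7, with a median of 1.31, against a median of 0.04 over all genes and 52.3% of all genes above 0. The exception was Pglyrp1. Between the arrays labelled activated 3 of these 7 were higher on the miR-7 deficient array and 4 lower (median −0.19). The wild type activated array was lower than the naive one in 6 of 7 (median −1.25, with Ltf the exception) and the miR-7 deficient activated array in 7 of 7 (median −2.21), where all genes had medians of −0.17 and −0.14 and the receptor rows of −0.54 and −0.43. These medians include values below the floor, among them those of Ngp, Camp and Ltf on every array. Of the 3 erythroid genes, 1 was higher between naive arrays (Alas2, median of the 3 −0.47) and none between the arrays labelled activated (median −1.09).

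Values of the wider cell type lists stood beside these differences. Of 24 further neutrophil genes, none was above the floor on any array. Among them Ly6g, a surface marker of mouse neutrophils, read 142 and 66.0 on the miR-7 deficient and wild type activated arrays and 113 and 100.1 on the miR-7 deficient and wild type naive arrays. Mpo, the peroxidase of granules, read between 123 and 199 on the 4 arrays. Both were picked as defining markers after their values were seen. The summed intensity of the 24 genes was 3582.2 and 3296.1 on the miR-7 deficient and wild type activated arrays, against 6967.6 and 5793.1 on the miR-7 deficient and wild type naive arrays. Without a floor, 17 of the 24 were higher in miR-7 deficient than in wild type naive cells and 7 lower (median 0.30). The medians were 0.06 between the arrays labelled activated, −0.60 between the wild type arrays and −1.07 between the miR-7 deficient arrays. All of these values lie below the floor, and the receptor rows, which stand for background, had medians of −0.21, −0.13, −0.54 and −0.43 in the same 4 comparisons.

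Among the markers of B cells, T cells and monocytes none was 2-fold apart between the naive arrays. The summed intensity of 8 B cell markers was 26320.4 on the miR-7 deficient naive and 16197.2 on the wild type naive array, and that of 13 T cell markers was 33484.1 on the miR-7 deficient naive and 27259.1 on the wild type naive array. Of 23 monocyte and macrophage genes, which share S100a8 and S100a9 with neutrophils, 4 were above the floor on a naive array. Their summed intensity was 10523.3 on the miR-7 deficient naive and 9671.5 on the wild type naive array. On each of these arrays 3 of the 23 were above the floor, so both sums include many values below it. The part of each of these in the differences of S100a8 and S100a9 was not tested.

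The further erythroid genes did not share one pattern. Of 27 measured, 4 lay above the floor on each array labelled activated and 1, Hba-a2, on each naive array. Between the naive arrays none was apart, and the median without a floor was 0.04. Between the arrays labelled activated 1 of the 27 was apart as higher and 1 as lower on the miR-7 deficient array. Between the arrays labelled activated the Hba-a2 row with the highest mean was lower by a bound of −1.21 on the miR-7 deficient array. Of the other Hba-a2 rows, 1 had a bound of −0.83, short of 2-fold, and 1 lay below both floors. For Car2, a carbonic anhydrase, the arrays labelled activated exceeded the naive arrays by at least 1.09 on the miR-7 deficient and 1.44 on the wild type arrays. For Bpgm, an enzyme of red cell glycolysis, the bound was 1.50 on the wild type arrays. Slc4a1, the anion exchanger of the red cell membrane, stayed below every floor, and it too was picked after its values were seen.

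Summed intensity of the 10 brain cell markers was 67802.7 and 63818 on the miR-7 deficient and wild type activated arrays, against 4104.1 and 5516.3 on the miR-7 deficient and wild type naive arrays. It moved with the activation label, as Hbb-b1, Bpgm and Car2 did, and its part in their differences was not tested. Of 14 vessel and meningeal genes, 6 were above the floor on each array labelled activated, against 3 on the miR-7 deficient and 2 on the wild type naive array.

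**Figure D4:**
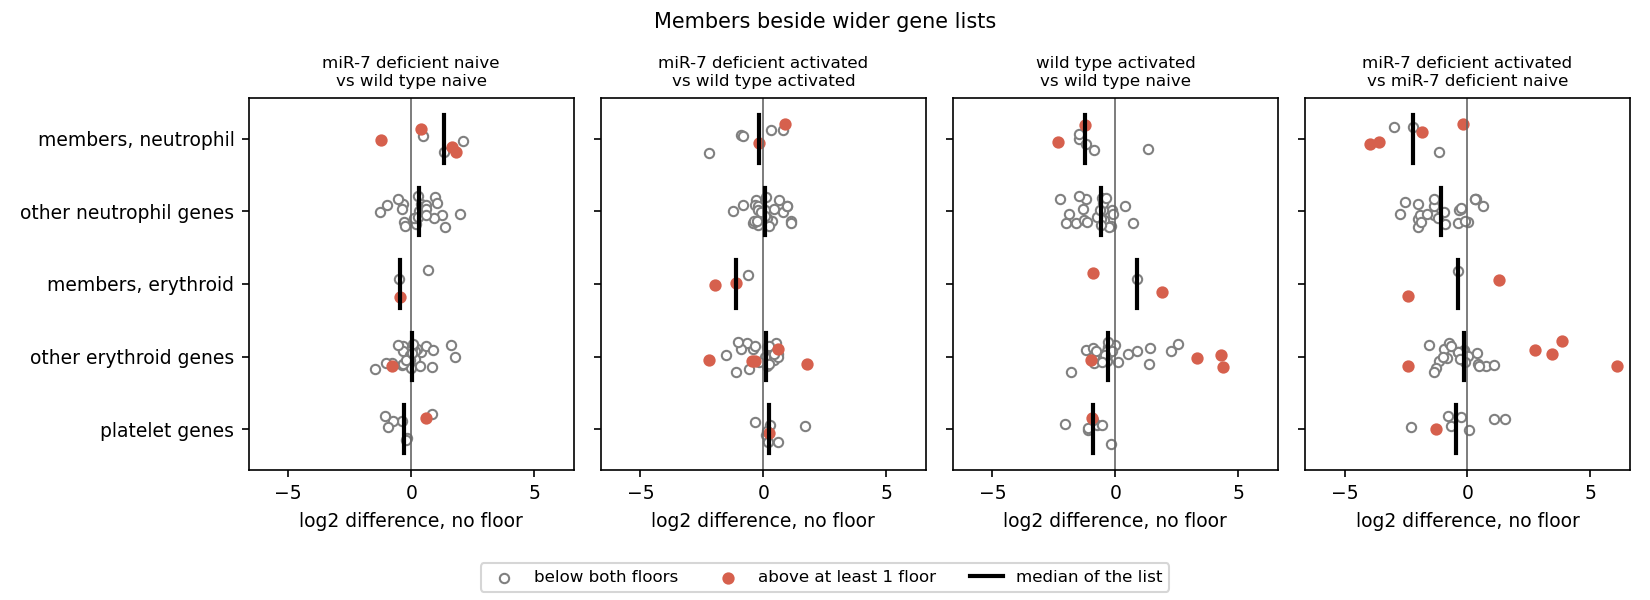
Log2 differences without a floor for the neutrophil and erythroid members, the further neutrophil and erythroid genes and the platelet genes in the 4 comparisons, filled where the gene is above at least 1 floor and open where it is below both, with a black bar at the list median. The further neutrophil genes are open in all 4 comparisons, with medians of 0.30, 0.06, −0.60 and −1.07.

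The genes whose profiles over the 4 arrays lay nearest to each member were found as the smallest distance between log2 values centred on the gene's own mean. Among 4876 genes that passed the floor of 1 array or more, the nearest to S100a8 were Irf1 (0.34), Irf9 (0.44) and S100a9 (0.50), and those to S100a9 were Irf1 (0.21), Gbp2 (0.26) and Samd9l (0.36). Both members lie below the floor on 3 of the 4 arrays, so these distances rest mostly on background values. For each member the genes compared were those above the floor on at least as many arrays as the member. Among 1757 such genes the nearest to Hba-a1 was Hba-a2 at 0.28, followed by Cmah (0.56) and Esyt1 (0.71). Hbb-b1 lay 3.32 from Hba-a1 and, among 3620 genes, nearest to Shfl (0.34), Panx2 (0.35) and Tppp3 (0.36). Nearest to Lcn2 among 1757 genes were Pnpla7 (0.17), Fn1 (0.33) and Lsp1 (0.39), and to Pglyrp1 among 1195 genes Tulp4 (0.26), Dnajc5 (0.34) and Clec4a4 (0.34). These are likenesses over 4 values that share the same arrays.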

How the data were processed

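Per the labels' protocols, total RNA of 4 samples was labelled with Cy3 and hybridised to NimbleGen arrays, 1 for each sample. The growth text of the labels describes a bacterial culture. Per the submitters' processing notes, the authors normalized with RMA, whose version is not given. Values were deposited as intensities on a linear scale, although a file header speaks of log2. The comparison tables deposited by the authors also hold a fold, which is the ratio of both intensities and is not quoted. Their 283288 intensities match the value table (relative tolerance 1e-06).

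Genes are named for 33663 of 35411 rows, and symbols were updated by gene number for 31529 rows (RefSeq, GRCm38.p6). Of several rows of a gene the one with the highest mean was used. The synonym of a Vamp5 row also matched Camp and was not used, since the gene name matched another row. Intensities were taken to log2 and floored at the 95th percentile of 667 receptor rows. Where both sides lay below the floor, or the floors left no bound, the difference was set to 0. No test was run with 1 array per group, and the counting was tested on simulated data.

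The members and lists were chosen with earlier results of these data known. Named are all members, of each list at most 3 genes per comparison (those furthest apart above the floor), 5 genes that check the labelled cell type, and the 3 nearest profiles of each member above a floor, leaving out predicted genes and antigen receptor segments. A few list genes that this rule would name are not reported here. Alternatives were centring, removal of a lowess trend (fraction 0.3), no floor, floors at the 99th and 75th percentile, the mean of all rows, and quantile normalization of each pair alone. Tools were matplotlib 3.10.9, statsmodels 0.14.6, scipy 1.17.1, pandas 2.3.3 and numpy 2.4.6 under Python 3.11.15.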

Additional observations from a re-analysis of the deposited data

How the results depend on the processing

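The counts of members apart depended on the floor. Between naive arrays 2 members were apart, against 5 with no floor, and 1 with the floor at the 99th percentile, where S100a9 was at 0 and Pglyrp1 was the member still counted. Between the arrays labelled activated the 2 globins were apart, against 0 with the floor at the 99th percentile. The wild type activated and naive arrays had 3 members apart, and 7 with no floor. The miR-7 deficient activated and naive arrays had 4 apart, 8 with no floor, 1 with the floor at the 99th percentile and 7 with it at the 75th. Other counts stayed within 1.5 times of these, and no member counted as apart changed sign. Pglyrp1, not apart between the miR-7 deficient activated and naive arrays at −0.19, was at 0.11 after trend removal. Of the 40 member differences, 25 moved by more than the pooled SD between rows of a gene with no floor, 11 with the floor at the 99th and 16 with it at the 75th percentile, and 0 under centring, trend removal or normalization of the pair alone. The mean of all rows changes nothing here, because each member has 1 row. Of all genes apart between naive arrays 71.4% were higher, against 30.9% after trend removal and 32.6% after normalizing the pair alone. For the wild type activated and naive arrays this was 62.2%, against 73.5% after centring and 37.0% with the pair alone, and for the miR-7 deficient ones 42.8%, against 53.2% after trend removal. The S100a9 and Pglyrp1 calls between naive arrays kept their direction under each of these scalings. No paired analysis was possible because each group has 1 array. Signal below the floor limits Ngp, Camp, Ltf and Alas2, for which no difference was detectable.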

Other observations

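Most genes with names that begin with S100 encode small calcium-binding proteins. Of 13 genes with such names outside the panel, 2 were above the floor on the naive arrays, and neither was 2-fold apart between them. The log2 differences between miR-7 deficient and wild type naive cells were 0.43 for S100a11 and 0.08 for S100a10. Both were lower on the arrays labelled activated, S100a11 by −2.07 on the miR-7 deficient and −1.08 on the wild type arrays, and S100a10 by −2.05 on the miR-7 deficient arrays and by a bound of −1.91 on the wild type arrays.

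Platelet genes gave 1 of 8 above a floor. Treml1, a receptor of platelet granules, read 729.9 on the miR-7 deficient activated array, 620.02 on the wild type activated array, 1796 on the miR-7 deficient naive array and 1197 on the wild type naive array. It was lower by −1.30 on the miR-7 deficient activated than on the miR-7 deficient naive array. Among 23 monocyte and macrophage genes, Lyz2, the lysozyme of myeloid cells, and Lgals3, a galectin, were lower on the miR-7 deficient activated than on the miR-7 deficient naive array by bounds of −1.17 and −1.14. C1qa, a chain of the first complement component, was higher by at least 0.83. Of 9 eosinophil, basophil and mast cell genes, Ms4a2, a chain of the IgE receptor, was the one apart, by −1.06 between the wild type activated and naive arrays.

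Of the vessel and meningeal genes, Ptgds, a prostaglandin synthase of the meninges and choroid plexus, was lower by −1.92 on the miR-7 deficient than on the wild type activated array, the same direction as both globins. Mgp, a matrix protein, was lower there by a bound of −1.35, and Col1a1, a collagen chain, was higher by at least 1.24.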
